A study of Mus musculus with 8 samples.

Results

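The genes described here were 6 matrix metalloproteinases, Mmp2, Mmp9, Mmp11, Mmp13, Mmp14 and Mmp16, and 3 tissue inhibitors of metalloproteinases, Timp1, Timp2 and Timp3. They were taken by gene name from the table of estimated counts, in which they are 9 of 35896 genes. All 9 passed the filter on low counts.

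Matrix metalloproteinases are zinc-dependent enzymes that cut collagens, laminins, proteoglycans and growth factor carriers in the matrix around cells, and most of them are secreted as inactive precursors. Mmp14, which sits in the cell membrane, activates the precursor of Mmp2 in a complex in which Timp2 serves as the bridge, while an excess of Timp2 blocks both enzymes. In the tooth germ these enzymes and inhibitors are known for remodelling the basement membrane and mesenchymal matrix as the epithelial bud grows into the jaw.

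RNA-seq was done on whole molar tooth germs of BRE-GFP mouse embryos, which carry a fluorescent reporter of BMP-Smad signalling. The reporter genotype was shared by every group, controls included, and the germs were kept in serum-supplemented culture medium for 1 day of treatment. Germs of the embryonic stage E12.5 received either the solvent DMSO, or SB431542, which blocks type I receptors of TGF-beta and activin, or SIS3, which blocks Smad3. Germs of the later stage E13.5 received DMSO alone. No dose, and no number of germs per sample, is stated in the sources used here. The germs were cultured outside the embryo and hold epithelium, mesenchyme, vessels and blood-derived cells together, so that a change in 1 cell type is seen only through the whole tissue.

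The upstream sequence of Mmp13 is shown first because Mmp13 had the largest fitted difference between E12.5 and E13.5 among the 9 genes. It is also known as a gene that Runx2, AP-1 (Fos and Jun) and Ets factors act on in bone-forming cells. The sequence is taken from RefSeq (build GRCm38.p6, chr9:7272264-7272513, plus strand). It covers the 250 bases before the start of the gene, 5′ to 3′. Capitals mark letters that match a Runx motif (TGTGGT on the opposite strand), an Ets motif (GGAAGT) and an AP-1 motif (TGANTCA), in that order.
Mmp13 upstream: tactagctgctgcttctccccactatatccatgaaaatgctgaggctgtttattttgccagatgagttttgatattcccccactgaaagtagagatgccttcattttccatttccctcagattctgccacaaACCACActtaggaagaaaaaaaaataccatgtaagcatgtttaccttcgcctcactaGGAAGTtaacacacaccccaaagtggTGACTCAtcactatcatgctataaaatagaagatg
The first base of these matches lies at positions -118, -61 and -35, counted back from the gene's start. Both strands of the window of 250 bases before the start were searched for each motif. The same search was done for the Smad palindrome GTCTAGAC and the CAGA box CAGACA, which share the letters AGAC. Among 32851 windows of this kind in the RefSeq table, 6.75% held the AP-1 motif, 14.0% the Runx motif, 19.7% the Ets motif, 0.167% the palindrome and 17.1% the CAGA box. The AP-1, Runx and Ets motifs stood together in 57 windows, or 0.174%. The table matched 6 of the 9 genes. Mmp14 had 1 Runx match, at position -114, and Timp1 had 1 Ets match, at position -174. Mmp11, Timp2 and Timp3 held none of the 5 motifs in this window. Mmp2, Mmp9 and Mmp16 had no entry. A match of letters is a description of the sequence and was not tested for binding.

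Each of the 4 groups had 2 columns of counts. In 3 groups, all but SIS3, the columns differed in their totals by at most 0.00749%. The median of their squared difference was divided by that expected from dividing 1 set of reads. Over genes with 1 annotated transcript this ratio ran from 1.22 to 1.30, against 8.05 for the SIS3 pair. It was larger over genes with 7 or more transcripts, from 2.36 to 3.12, against 16.05 for the SIS3 pair. Over the 9 genes it ran from 1.21 to 3.65, against 6.56. Each of these 3 pairs was therefore counted as 1 library, which left 5 libraries of 5995709 to 30975010 counts. Both SIS3 libraries, the shallowest, were made with a poly-A selecting kit and all others with a randomly primed low-input kit, so kit and SIS3 cannot be told apart. Every measure of spread came from the pair of SIS3 libraries, which may be technical replicates. Of 10 dental mesenchyme markers none was at 0 in any library. Of 10 epithelial markers Shh and Fgf8 were at 0 in SIS3 library 1 and at E13.5.

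Levels of different genes were compared as CPM (counts scaled to the library total) divided by the merged exon length in kilobases. In E12.5 DMSO germs Mmp2 was the most abundant of the 9 genes, at 163 CPM per kb, which put it at the 99.0 percentile of the 19022 genes tested. Timp2 followed with 76.4, Mmp14 with 73.3, Mmp9 with 37.8 and Timp3 with 23.4 CPM per kb. Mmp11 stood at 18.0, Mmp16 at 11.5 and Timp1 at 6.36 CPM per kb. Mmp13 was near the floor of detection at 0.157 CPM per kb, the 14.3 percentile. The order of Timp2 and Mmp14 depended on the length used, since division by the longest transcript gave 134.9 CPM per kb for Mmp14 and 80.2 for Timp2. By merged exon length Mmp2 stood first in every library, whereas by longest transcript Mmp14 stood first with SB431542 and in SIS3 library 2.

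The order of Timp2 and Timp3 was turned in the SIS3 libraries. Timp2 stood above Timp3 per kb in the E12.5 DMSO library (76.4 against 23.4), in the SB431542 library (71.2 against 31.2) and at E13.5 (100.04 against 30.9). In both SIS3 libraries Timp3 stood above Timp2, at 33.5 against 26.3 and 32.7 against 27.0 CPM per kb, and this held with either length. Within the SIS3 pair the neighbours Mmp16 and Mmp11 (11.2 and 5.70 CPM per kb in library 1, 10.0 and 10.6 in library 2) exchanged places, as did Mmp9 and Timp1 (4.29 and 3.01, then 0.629 and 3.58). Those neighbours were not separated beyond the spread of the pair. Summed per kb of merged exon, the 6 Mmp genes stood at 2.86 times the 3 Timp genes in E12.5 DMSO germs, 2.10 times with SB431542, 2.16 and 1.96 times with SIS3 and 2.10 times at E13.5. The ratios were not taken by longest transcript, so their order may depend on the length used. For these orders and ratios, too, kit and SIS3 cannot be told apart.

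**Figure D1:**
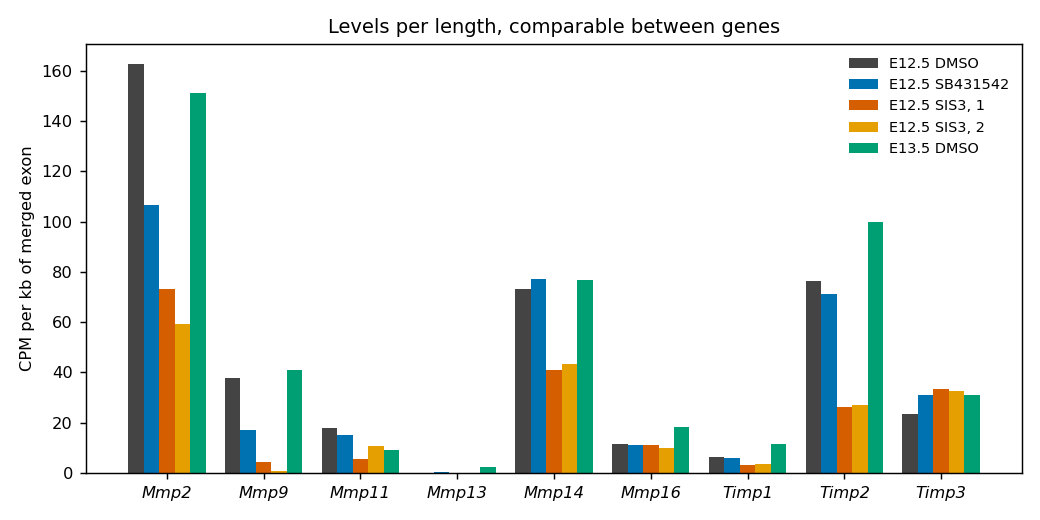
Level of each gene per length (vertical axis, CPM per kb of merged exon) in the 5 libraries (colours); bars start at 0 and carry no error because 3 groups have 1 library. Mmp2 is the highest bar of every library, and Timp3 exceeds Timp2 only in both SIS3 libraries, which were made with another kit.

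The secreted gelatinases, which cut denatured collagen and basement membrane collagen, were both lower in SIS3 germs than in DMSO germs by value. Mmp2 (ENSMUSG00000031740; GRCm38 chromosome 8, 92827291 to 92853420, plus strand) had 545 and 551 CPM in the 2 E12.5 DMSO columns, 361 and 358 with SB431542, 247 and 199.8 with SIS3, and 513 and 506 at E13.5. Both SIS3 libraries lay below every other column, and by value the SB431542 columns lay between SIS3 and the DMSO columns of either stage. For this and the following genes, both columns of a group other than SIS3 were counted as the same library. Overlap or separation of such columns therefore gives no measure of the spread between samples. Mmp9 (ENSMUSG00000017737; chromosome 2, 164940780 to 164955850, plus strand), also a product of osteoclasts and macrophages, had 124 and 144 CPM in E12.5 DMSO, 63.8 and 56.5 with SB431542, 15.2 and 2.23 with SIS3, and 139 and 152 at E13.5. By value the E12.5 and E13.5 DMSO columns lay close together, SB431542 was lower, and the 2 SIS3 libraries were lowest but far apart. The SIS3 values rest on 91 and 21 counts.

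Of the membrane-anchored enzymes, Mmp14 (chromosome 14, 54431612 to 54445364, plus strand), the activator of Mmp2, had 442 and 431 CPM in E12.5 DMSO, 463 and 457 with SB431542, 245 and 259 with SIS3, and 441 and 474 at E13.5. The SIS3 libraries lay apart below the rest, and the other 3 groups lay close together. Mmp16 (chromosome 4, 17852893 to 18119145, plus strand), a related membrane enzyme, had 102 and 97.0 CPM in E12.5 DMSO, 99.1 and 94.6 with SB431542, 97.1 and 86.8 with SIS3, and 169 and 149.7 at E13.5. Here the 3 E12.5 groups lay close together by value, and only the E13.5 columns stood above them.

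Mmp11 (chromosome 10, 75923222 to 75936496, minus strand), a stromelysin made by stromal fibroblasts and activated inside the cell by furin, had 52.4 and 47.8 CPM in E12.5 DMSO, 46.0 and 38.5 with SB431542, 15.8 and 29.4 with SIS3, and 25.7 and 24.4 at E13.5. The E13.5 columns lay between the 2 SIS3 libraries, and all 4 of these values lay below the E12.5 DMSO and SB431542 columns. Mmp11 shares 155 exon bases with Chchd10 on the opposite strand, and no source used here states whether counting used the strand. Mmp13 (ENSMUSG00000050578; chromosome 9, 7272514 to 7283331, plus strand), a collagenase of osteoblasts and hypertrophic cartilage, had 8 and 5 counts in E12.5 DMSO, 7 and 7 with SB431542, 2 and 2 with SIS3, and 66 and 52 at E13.5. In CPM of the library these were 0.420 (95% Poisson interval 0.223 to 0.718), 0.497, 0.334, 0.212 and 6.74 (5.58 to 8.07). The E13.5 library was the high one, and the intervals of the 4 libraries at E12.5 overlapped each other. These intervals cover counting error only.

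Among the inhibitors, Timp2 (ENSMUSG00000017466; chromosome 11, 118301069 to 118355740, minus strand), the bridge between Mmp14 and the precursor of Mmp2, had 294 and 301 CPM in E12.5 DMSO, 279 and 277 with SB431542, 103 and 105 with SIS3, and 386 and 394 at E13.5. The order from low to high was SIS3, SB431542, E12.5 DMSO and E13.5, and the SIS3 pair was closely matched. Timp3 (chromosome 10, 86300372 to 86349506, plus strand), which binds to the matrix and also inhibits ADAM and ADAMTS proteinases, had 193 and 188 CPM in E12.5 DMSO, 250.1 and 258 with SB431542, 273 and 266 with SIS3, and 246 and 257 at E13.5. Its E12.5 DMSO columns were the low ones by value, and the other 3 groups lay close together. Timp3 shares 1733 exon bases with Syn3 on the opposite strand. Timp1 (chromosome X, 20870166 to 20874735, plus strand), the inhibitor that binds the precursor of Mmp9, had 5.49 and 5.81 CPM in E12.5 DMSO, 5.54 and 4.90 with SB431542, 2.67 and 3.18 with SIS3, and 9.70 and 11.0 at E13.5. By value E12.5 DMSO and SB431542 lay close together, SIS3 was lower and E13.5 higher. The SIS3 values rest on 16 and 30 counts.

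**Figure D2:**
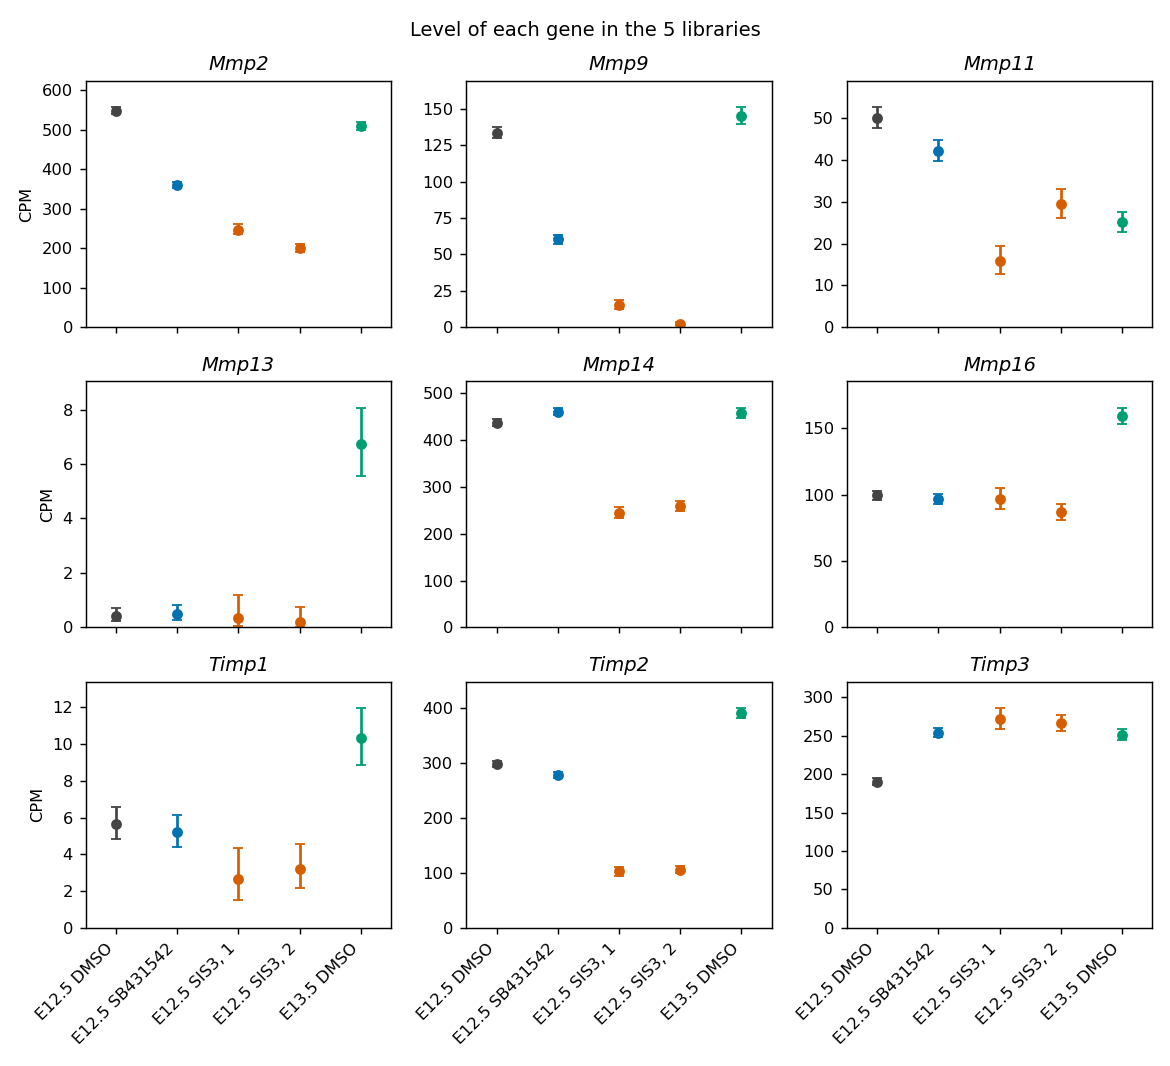
CPM (vertical axes, linear from 0) of each gene in the 5 libraries; points are library values and bars are 95% Poisson intervals, which cover counting error only. The 2 SIS3 points of Mmp2, Mmp14 and Timp2 lie below the other 3 points of their panel, and the E13.5 point of Mmp13 stands at 6.74 CPM above 4 points under 0.5 CPM.

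SIS3 was compared with DMSO at E12.5, a contrast in which the library kit differed too, so kit and SIS3 cannot be told apart. Timp2 and Mmp2 were lower in the SIS3 libraries, and no member was higher past the threshold. The fitted log2 fold change of Timp2 was -1.59 (SE 0.27, 95% confidence interval -2.18 to -1.0, adjusted p = 0.00537), a 3.01-fold lower level, and it was -1.59 in each SIS3 library taken alone. For Mmp2 it was -1.36 (SE 0.28, interval -1.97 to -0.76, adjusted p = 0.0151), or 2.58-fold lower, with -1.20 and -1.55 in the single libraries. Adjusted p-values are from edgeR's quasi-likelihood test, with the Benjamini-Hochberg method applied over 19022 genes at 0.05. By this rule 2 of the 9 genes were lower, while 3.03% of all genes were called lower and 3.82% were called in either direction. In whole germs, fewer cells of a type and less RNA per cell cannot be told apart.

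Mmp9 had the largest fitted difference but was not called. Its log2 fold change of -4.06 (SE 1.66) had an interval of -14.4 to 6.25 and an adjusted p of 0.528, and its 2 SIS3 libraries stood at -3.18 and -5.93 against DMSO. Without SIS3 replicate 1 the value was -5.995, and without replicate 2 it was -3.19, with no test in either case. Mmp14 had -0.87 (interval -1.45 to -0.28, adjusted p = 0.104) and Mmp11 had -1.22 (interval -2.09 to -0.35, adjusted p = 0.128). Both had unadjusted p-values under 0.05 and did not pass the adjustment. Timp1 had -1.02 (adjusted p = 0.465), Mmp13 -0.73 (0.825) and Mmp16 -0.19 (0.824). Timp3 was the 1 gene of the 9 with a fitted value above 0, at 0.43 (interval -0.19 to 1.05, adjusted p = 0.505). This interval did not overlap that of Timp2, although the difference between the 2 genes was not tested. The median log2 fold change over the 9 genes was -1.02, beside 0 over all genes tested. The Mmp2 call was lost in 3 alternatives, with adjusted p of 0.0746 when only genes of at least 5 CPM were tested, 0.0608 when the 2 groups were fitted alone and 0.129 after trends on GC content and gene length were removed, where the log2 fold changes were -1.36, -1.35 and -1.11. The Timp2 call was lost in the first of these, at an adjusted p of 0.0513 and a log2 fold change of -1.59.

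**Figure D3:**
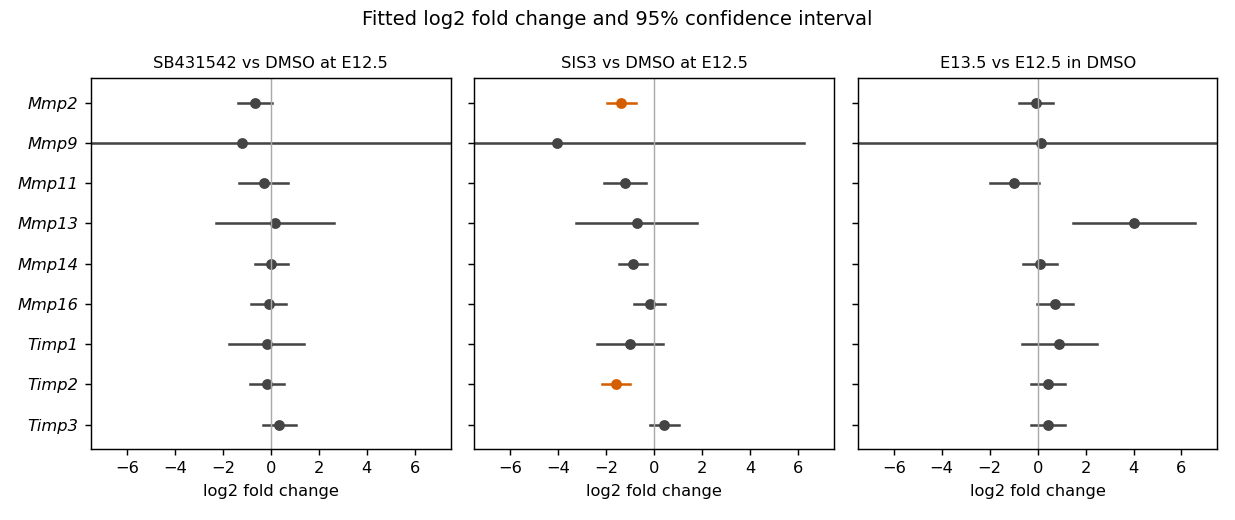
Fitted log2 fold change (horizontal axis) of each gene in 3 comparisons, with points for the estimate and lines for the 95% confidence interval; orange marks an adjusted p under 0.05, and the Mmp9 lines run beyond the axis. Timp2 (-1.59) and Mmp2 (-1.36) are the orange points, both in the SIS3 comparison.

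The comparison of SB431542 with DMSO at E12.5 asked what receptor inhibition changed, and 0 of the 9 genes were called. None of the 9 had an unadjusted p under 0.05. The background was also 0% of 19022 genes, with 108 higher and 127 lower at an unadjusted p under 0.05, and DESeq2 called 4 genes and 0 of the 9. Mmp2 had a fitted log2 fold change of -0.66 (SE 0.34, interval -1.38 to 0.06, unadjusted p = 0.0694 and adjusted p = 1 by edgeR's quasi-likelihood test), and Timp3 had 0.36 (interval -0.34 to 1.07). Mmp9 had -1.20 with an interval of -12.8 to 10.4, and nothing can be read from it at this number of libraries. The remaining 6 genes lay between -0.30 for Mmp11 and 0.19 for Mmp13. For Mmp14, at 0.02, the interval was -0.67 to 0.71, which overlaps the Mmp14 interval under SIS3 (-1.45 to -0.28). For Timp2, at -0.15, the interval was -0.86 to 0.55. The median over the 9 genes was -0.15, beside 0.00 over all genes. These are 2 single libraries, whose spread is assumed to be that of the SIS3 pair.

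The inhibitor groups were also compared with each other, a contrast added after the values were seen. Timp2 was lower with SIS3 than with SB431542, with a log2 difference of -1.44 (SE 0.27, interval -2.03 to -0.85, adjusted p = 0.0126 by edgeR's quasi-likelihood test). It was the 1 gene of 9 called, beside 2.44% of all genes. The call was lost when only genes of at least 5 CPM were tested (adjusted p = 0.0738) and with GC content and length trends removed (adjusted p = 0.0767). Mmp14 had -0.89 (adjusted p = 0.125), Mmp2 -0.70 (adjusted p = 0.269) and Timp3 0.07 (interval -0.55 to 0.68). No dose is stated, and the kit differed between these groups as well. Both inhibitor comparisons use the same E12.5 DMSO library, so their values for a gene are given side by side only: -1.59 with SIS3 and -0.15 with SB431542 for Timp2, and -1.36 and -0.66 for Mmp2.

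The stage comparison, E13.5 against E12.5 in DMSO, gave 0 calls among the 9 genes by edgeR's test and 0 by DESeq2, while 5.23% of all genes were called by edgeR. Mmp13 had the largest value of the 9, with a log2 fold change of 4.01 (SE 1.19, interval 1.46 to 6.57), an unadjusted p of 0.00466 and an adjusted p of 0.0645. Of the 9 genes it was the 1 with an unadjusted p under 0.05, and without a filter on low counts it was called (adjusted p = 0.0302). Mmp16 had 0.71 (interval -0.03 to 1.46, adjusted p = 0.228) and Timp1 0.90 (interval -0.67 to 2.47, adjusted p = 0.490). Timp2 and Timp3 had 0.42 and 0.43 (adjusted p = 0.469 and 0.455). Mmp11 pointed the other way, at -0.97 (interval -2.01 to 0.07, adjusted p = 0.237). Mmp9 at 0.15, Mmp14 at 0.10 and Mmp2 at -0.07 were closest to 0, and the sign of Mmp2 changed with the filter on low counts and with the GC and length trends. Fitted values were above 0 for 7 of the 9 genes, with a median of 0.42 beside 0.00 over all genes tested. E12.5 and E13.5 were each 1 library, and the same E12.5 library is the control of the inhibitor comparisons.

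For both called genes, the tested genes of at least 5 CPM with the most similar profile over the 5 libraries were found by the Euclidean distance between centred log2 CPM profiles, among 12344 genes. Nearest to Mmp2 were Cald1, which encodes an actin-binding caldesmon, at a distance of 0.09, then H2bc14 (0.18) and Haspin (0.21). Nearest to Timp2 were Msn, which encodes moesin, and Mxra8, a matrix remodelling associated membrane protein, both at 0.14, and then Pigyl (0.19). These distances describe 5 libraries from 4 groups and carry no test.

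Other genes of the family and its partners were counted from lists. Of 18 other Mmp genes and Timp4, 14 were tested. Under SIS3 1 was lower, the membrane-anchored Mmp15, with 52.8 CPM in DMSO, 53.1 with SB431542, 11.8 and 14.1 with SIS3 and 49.5 at E13.5 (log2 fold change -2.10, SE 0.35, adjusted p = 0.00422). In the stage comparison 1 was higher, the macrophage elastase Mmp12, with 14.2 CPM at E12.5 and 63.4 at E13.5 (2.19, SE 0.44, adjusted p = 0.0143). It stood at 21.3 with SB431542 and at 33.2 and 28.9 with SIS3, above the DMSO library where Mmp9 stood below it. The list medians were -0.38 for SIS3, 0.20 for SB431542 and 1.33 for stage.

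Of 18 activators, inhibitors and receptors that act on metalloproteinases, all tested, 5 were lower under SIS3, 0 higher, and 0 were called with SB431542 or between stages. The list medians were -0.96, -0.11 and 0.03. Pcsk6, a furin-like proprotein convertase, went from 64.2 CPM in DMSO to 12.8 and 17.6 with SIS3 (log2 fold change -2.14, adjusted p = 0.00327). Plau, the urokinase that starts the plasmin cascade, went from 17.4 to 3.17 and 1.59 CPM (-2.98, adjusted p = 0.00756). Cd44, a hyaluronan receptor that holds Mmp9 and Mmp14 at the cell surface, went from 103.9 to 20.3 and 9.02 CPM (-2.91, adjusted p = 0.0204). Lrp1, the endocytic receptor that clears several Mmp and Timp proteins, was the most abundant gene of the list, at 1349 to 1464 CPM over the 5 libraries. Of 14 transcription factors known to act on Mmp and Timp genes, 0 were called under SIS3 or SB431542, with medians of -0.29 and -0.08. Fos, a subunit of AP-1, was lower at E13.5, at 78.0 CPM against 268.6 at E12.5 (-1.75, SE 0.34, adjusted p = 0.0118), the 1 called of 14 with a list median of -0.53, in the comparison in which Mmp13 stood highest. Runx2 had 348 and 313 CPM in E12.5 and E13.5 DMSO and 231 and 167 with SIS3 (adjusted p = 0.139).

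Markers of other cells of the germ moved in the same comparisons as the members, and their part in the members' values was not tested. Of 15 macrophage and osteoclast markers, 7 were lower under SIS3 and 0 higher, with a median of -3.35. Their summed level was 124.8 CPM in E12.5 DMSO, 82.5 with SB431542, 32.7 and 27.5 with SIS3 and 199.6 at E13.5. Dcstamp was at 0 in both SIS3 libraries, C1qa in library 1, and Adgre1, C1qb and C1qc in library 2. Between SIS3 libraries 1 and 2, Mmp9 stood at 15.2 and 2.23 CPM, the macrophage receptor gene Csf1r at 2.17 and 0.106 CPM and the osteoclast proteinase gene Ctsk at 10.3 and 8.17 CPM. By value the list did not move as 1 between these libraries. Ptprc (1.00 and 2.44 CPM), Cd68 (7.84 and 8.17), Tyrobp (0.167 and 0.530), Fcer1g (0.334 and 0.637) and C1qa (0 and 0.106) went the other way. In these libraries 3 counts correspond to 0.500 and 0.318 CPM. Tyrobp, Fcer1g, C1qa and the library 2 value of Csf1r therefore lie near the floor, and Cd68 was nearly level. The differences between the libraries were not tested. With SB431542 and between stages 0 of the 15 were called.

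All 10 endothelial markers were lower under SIS3 (median -3.46), with sums of 435 CPM in E12.5 DMSO, 510.4 with SB431542, 49.9 and 42.5 with SIS3 and 470.2 at E13.5. Of 7 pericyte markers 2 were lower (median -1.13), with sums of 675 CPM in DMSO and 395 and 420.3 with SIS3. Of 10 osteoblast markers 4 were lower (median -3.58), with sums of 685 CPM in DMSO, 496 with SB431542, 279.5 and 254 with SIS3 and 1106 at E13.5. At E13.5, where Mmp13 stood highest, 1 of the 10 osteoblast markers was higher and 9 were not called (median 0.68). The 1 called was Ibsp (2.93, adjusted p = 0.00107), which went from 64.7 to 481 CPM. The sum of the other 9 was 620.05 CPM at E12.5 and 625 at E13.5, with Runx2 as its largest part (348 and 313 CPM). Of these 9, Alpl, Spp1, Bglap2, Dmp1 and Ifitm5 had fitted values above 0, from 0.39 to 2.33. Runx2, Sp7, Phex and Bglap had fitted values below 0. The chondrocyte sum was 389 CPM at E12.5 and 799.6 at E13.5, but 354 and 348 CPM without Col11a2, and 0 of 7 tested chondrocyte markers were called (median -0.52). Of 8 skeletal muscle markers 4 were lower under SIS3 (median -1.69) and 2 at E13.5. Of 10 dental mesenchyme markers 1 was lower under SIS3 (median -0.37), with sums from 2554 CPM at E13.5 to 3648 with SB431542. Of 9 tested epithelial markers 0 were called, yet their sum ran from 49.4 CPM with SB431542 and 66.9 in SIS3 library 1 to 282 in SIS3 library 2. The 6 neutrophil markers summed to 0.872 CPM in E12.5 DMSO and 0.781 with SB431542, and all were at 0 in both SIS3 libraries. In those libraries 3 counts correspond to 0.500 and 0.318 CPM, so these levels lie near the floor. Of the 6, 1 was tested: Ltf was at 0 in E12.5 DMSO and at 6.91 CPM at E13.5 (adjusted p = 0.0141), where the other 5 were at 0.

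**Figure D4:**
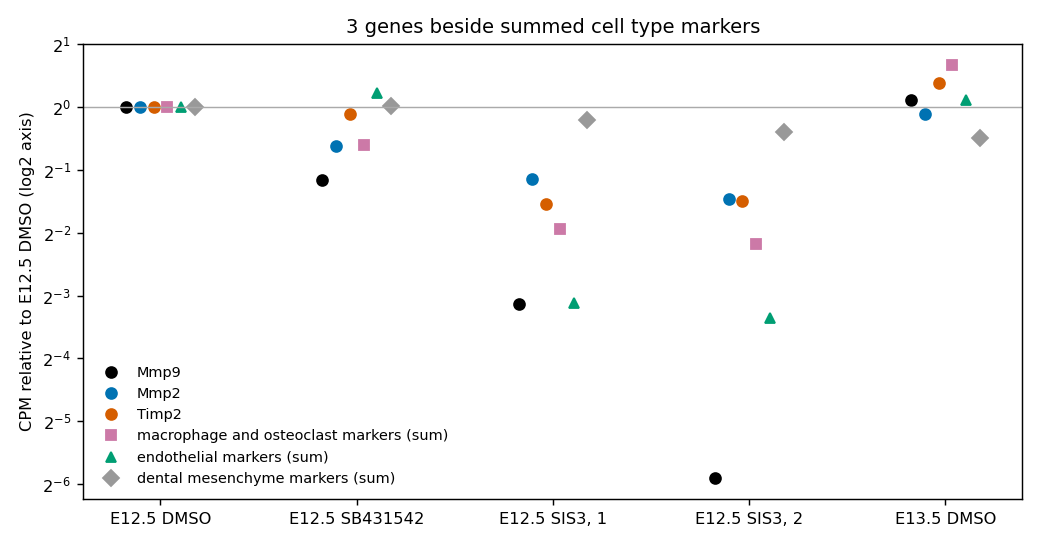
CPM of Mmp9, Mmp2 and Timp2 and summed CPM of 3 marker lists in each library (horizontal axis), relative to the E12.5 DMSO library (vertical axis, log2 scale). In both SIS3 libraries the endothelial sums (49.9 and 42.5 CPM) and Mmp9 (15.2 and 2.23 CPM) lie farthest below the line, and the dental mesenchyme sums stay nearest to it.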

How the data were processed

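RNA-seq was done by the submitters on 8 samples of cultured mouse molar germs, 2 in each of 4 groups. The authors deposited a table of estimated counts for each gene, in whole numbers that are not scaled to library size. Salmon, HISAT2, SAMtools, deepTools and DESeq2 are named, without roles or versions, together with the build mm10, per the submitters' processing notes. The annotation, strand setting and treatment of multi-mapping reads are not stated in the sources used here. Gene positions and lengths were taken from GENCODE M21 (GRCm38), which matched 35507 of 35896 gene IDs. Up to 2.26% of the 31-base words of a member's exons occur in other genes. All 8 columns were matched to samples by name.

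Columns of a group were summed where, over genes with 1 annotated transcript, they differed by near the noise of dividing 1 set of reads. This left 5 libraries, of which SIS3 has 2. At these depths 3 counts correspond to 0.0969 to 0.500 CPM. Counts were tested with edgeR 4.0.16 in R 4.3.3 (TMM scaling, filterByExpr, robust quasi-likelihood F test, all groups in 1 fit, Benjamini-Hochberg adjustment over 19022 genes at 0.05). The SIS3 pair gave the fit its 1 residual degree of freedom, to which robust shrinkage added 12.5 from all genes, and the common biological coefficient of variation was 29.3%. Groups with 1 library are assumed to vary as the SIS3 pair does. Counting intervals do not cover amplification, since no molecular identifiers are named in the labels. Scripts were tested on simulated data.

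All 9 genes are named. From each list the called members were named, up to 4 by adjusted p, and otherwise up to 3 of the highest mean CPM; not every gene so eligible is printed. The 9 genes and the lists were chosen with earlier results of these data known. Alternatives were DESeq2 1.42.0, its size factors, other filters, all 8 columns as replicates with and without a replicate block, the 2 groups alone, removal of GC content and length trends, and each replicate left out. The contrast of SIS3 with SB431542 and division by the longest transcript were added after the values were seen.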

Additional observations from a re-analysis of the deposited data

How the results depend on the processing

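Every spread rests on the pair of SIS3 libraries, and depth limits Mmp13 and Timp1, which had 2 to 30 counts there. Among 552 log2 fold changes of single genes under the alternatives, 35 gained a call, 6 lost one and 4 changed sign. The changes of sign were Mmp13 with SB431542 (-0.10 without E12.5 DMSO replicate 2, up to 0.56 with another replicate left out), Mmp16 in SIS3 against SB431542 (-0.09, and 0.0091 without SIS3 replicate 2) and Mmp2 between stages (0.018 at a mean of at least 5 CPM, 0.042 with GC and length trends removed).

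With all 8 columns as replicates, which counts paired columns as separate samples, 1 of the 9 genes (Mmp2) was called for SB431542, 7 for SIS3, 6 for stage and 6 for SIS3 against SB431542, beside 259, 6765, 9741 and 5805 of 17748 genes (1.46%, 38.1%, 54.9% and 32.7%). With a replicate block added the counts were 0, 7, 6 and 6 of the 9 genes, beside 83, 6194, 9260 and 5191 of all genes (0.468%, 34.9%, 52.2% and 29.2%). Same-numbered columns correlated at -0.0234 to 0.000865 in their deviations from the group means. This could not show whether the replicate numbers pair the samples. In all groups but SIS3 the ratio to the noise of dividing 1 set of reads was 1.22 to 1.30 over genes with 1 transcript. It was 2.36 to 3.12 over genes with 7 or more transcripts and 1.21 to 3.65 over the 9 genes.

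With only genes of at least 5 CPM, which leaves out Mmp13, 0 of 8 were called for SIS3 and 0 for SIS3 against SB431542. Of all 12345 genes tested there, 130 were called for SIS3, 85 for SIS3 against SB431542 and 192 for stage. With GC and length trends removed, 1 of the 9 (Timp2) was called for SIS3 and 0 for SIS3 against SB431542. Of all 18881 genes tested there, 211 were called for SIS3, 99 for SIS3 against SB431542 and 176 for stage. With SIS3 and DMSO alone, where Mmp13 was not tested, 1 of 8 (Timp2) and 232 of all 15769 genes tested were called. Without a filter 1 of the 9 (Mmp13) was called for stage, and 27, 1414 and 2062 of all genes for SB431542, SIS3 and stage. DESeq2 called 4 genes for SB431542 and 574 for stage, and for SIS3 it called 675, of which 230 were higher, beside 151 higher of 727 with edgeR. Leaving out each replicate gave 0 to 1 genes for SB431542, 488 to 708 for SIS3 and 399 to 903 for stage, with the lowest stage counts, 419 and 399, without E13.5 replicate 1 or 2, and 662 without E12.5 DMSO replicate 2. The causes of these differences were not tested. Leaving out a SIS3 replicate, or fitting 2 lone libraries alone, left no residual degree of freedom and gave no test.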

Other observations

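Proteinases of neighbouring families and substrates of the Mmp enzymes were also counted from lists. Of 33 ADAM, ADAMTS and related proteinases, 6 were lower and 1 was higher under SIS3 by edgeR's quasi-likelihood test, with a median log2 fold change of -0.47, and 0 were called with SB431542 or between stages (medians 0.03 and 0.09). Adam12, a membrane proteinase of mesenchyme and muscle, had 48.5 CPM in DMSO and 11.0 and 10.8 with SIS3 (-2.23, SE 0.33, adjusted p = 0.00247). Adamts12 had 162 CPM in DMSO and 46.9 and 30.8 with SIS3 (-2.14, adjusted p = 0.00294). Adamts6 was the 1 that rose, from 28.5 to 91.2 and 104.5 CPM (1.71, SE 0.36, adjusted p = 0.0173), while it stood at 13.4 CPM with SB431542.

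Of 15 matrix substrates 6 were lower under SIS3 and 0 higher (median -0.75), and 0 were called with SB431542 or between stages (medians -0.41 and 0.21). Col1a1, a chain of fibrillar collagen and a substrate of Mmp13 and Mmp14, had 3334 CPM in DMSO, 1896 with SB431542, 610.4 and 606 with SIS3 and 5982 at E13.5 (SIS3: -2.53, SE 0.25, adjusted p = 6.41e-05). The basement membrane collagen genes Col4a1 and Col4a2, whose products the gelatinases cut, were lower under SIS3 by -1.51 and -1.49 (adjusted p = 0.00607 and 0.00839). Kit and SIS3 cannot be told apart for these genes either.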
